A study of Mus musculus with 17 samples.

Results

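Chil1, Chil3 and Chil4 are the mouse chitinase-like genes whose transcripts were followed here in the forestomach, the squamous-lined part of the rodent stomach, after 28 days of oral benzo(a)pyrene (BaP). They were chosen by name through the RefSeq transcript of each probe (older names Chi3l1, Chi3l3 and Chi3l4), with their levels in these samples already known. The array carried 1 probe for each, so 3 of 55681 probes and 3 of 37163 genes or unnamed transcripts were followed, and all 3 passed the brightness filter into the 21384 genes tested. Each array held RNA from 1 animal in the Cy5 channel and a reference RNA from 11 mouse cell lines in the Cy3 channel.

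All animals were males of the MutaTMMouse strain, a transgenic lacZ reporter line, aged 24 to 26 weeks. Control animals (n = 5) were gavaged with olive oil alone, and the other groups (n = 4 each) received BaP dissolved in olive oil at 25, 50 or 75 mg/kg per day. The forestomach was collected 72 hours after dosing ended, so the values describe RNA that remained after that interval. RNA came from sections of the whole forestomach taken at random. In RNA of a whole tissue, more cells of a type and more RNA per cell cannot be told apart. Keratin genes of squamous epithelium (Krt5, Krt13 and Krt14) were well above background on all 17 arrays.

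Chitinase-like proteins are secreted members of the chitinase family that kept the family's sugar-binding fold but lost the catalytic residue, so they bind chitin-like sugars without cutting them. Chil1, the mouse counterpart of human CHI3L1 (YKL-40), is made by macrophages, neutrophils and epithelial cells and acts in tissue injury and repair. Chil3 (Ym1) and Chil4 (Ym2) are near copies of each other with no direct human counterpart. Chil3 is a standard marker of macrophages activated by interleukins 4 and 13 through STAT6, and it is also stored by neutrophils. Chil4 is better known from mouse epithelium, and its transcript has been described in the mouse stomach.

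The promoters are shown because Chil3 and Chil4 are close copies of each other, while Chil1 lies on another chromosome. Each window runs from 250 bases before to 50 bases after the start annotated by RefSeq in GRCm38.p6, printed 5′ to 3′ on the gene's own strand. Chil1 lies at chr1:134181906-134182205 (+ strand), Chil3 at chr3:106167515-106167814 (- strand) and Chil4 at chr3:106219430-106219729 (- strand). Capitals mark the STAT palindrome TTCNNNGAA and the TATA box TATAAAA in Chil3 and Chil4, and an NF-kB motif in Chil1.
Chil1: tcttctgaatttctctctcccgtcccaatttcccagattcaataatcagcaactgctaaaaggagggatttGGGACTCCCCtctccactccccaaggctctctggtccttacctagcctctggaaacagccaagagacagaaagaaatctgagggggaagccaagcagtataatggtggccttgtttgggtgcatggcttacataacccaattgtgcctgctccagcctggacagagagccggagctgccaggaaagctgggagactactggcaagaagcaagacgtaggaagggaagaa
Chil3: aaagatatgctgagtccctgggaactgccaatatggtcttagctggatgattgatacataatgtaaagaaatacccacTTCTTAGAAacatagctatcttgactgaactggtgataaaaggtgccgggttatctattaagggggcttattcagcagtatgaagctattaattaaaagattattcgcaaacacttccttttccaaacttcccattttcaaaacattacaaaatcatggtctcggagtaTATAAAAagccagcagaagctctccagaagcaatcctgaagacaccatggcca
Chil4: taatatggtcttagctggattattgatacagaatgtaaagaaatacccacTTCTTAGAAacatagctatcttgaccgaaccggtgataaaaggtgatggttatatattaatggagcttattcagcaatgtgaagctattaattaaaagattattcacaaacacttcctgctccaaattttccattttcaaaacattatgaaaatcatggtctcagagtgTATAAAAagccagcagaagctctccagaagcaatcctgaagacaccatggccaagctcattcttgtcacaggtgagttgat
The Chil3 and Chil4 windows aligned over 273 columns, of which 251 were identical, 20 were mismatches and 2 were gaps (91.9% identity). Both held the STAT palindrome as TTCTTAGAA, at position -172 in Chil3 and -200 in Chil4, counted from the annotated start. The TATA box began 169 bases further on in both genes, at -3 in Chil3 and -31 in Chil4, so the annotated starts of these copies do not lie at the same place of the shared sequence. Neither motif was found in the Chil1 window, whose NF-kB match lay at -179. The motifs are not particular to Chil3 and Chil4 within the family. The relative Chil6 also held the STAT palindrome, at -184 and -86, and the relative Chia1 held the TATA box, at -43. Over all 32841 promoter windows searched on both strands, 8.3% held the STAT palindrome, 5.48% held the TATA box and 4.51% held the NF-kB motif. A C/EBP match (TTGCNNAA, in 10.8% of windows) was found in Chil4 at -131. The STAT6 form of the palindrome, with 4 free letters in place of 3 (6.95%), AP-1 (TGANTCA, 7.81%) and the aryl hydrocarbon receptor core GCGTG (32.4%) had no match in the 3 windows. The palindromes differ only in spacing, so a match to one is not a match to the other.

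Levels are log2 ratios of Cy5 over Cy3, corrected for background and normalized by loess, so 0 means as bright in the tissue as in the reference. Because each probe has its own reference level, they compare animals within a gene, not one gene with another. In the tissue channel 39.9% to 50.7% of probes on an array passed the scanner's test for signal well above background, and the array medians were 75.5 to 96 for signal and 64 to 74.5 for background. The arrays lay on 3 slides, each of which held control arrays and arrays of every dose.

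Chil4 was near background in control forestomach and reached its highest levels at 75 mg/kg. In control animals 1 to 5 its log2 ratio was -0.06, 0.41, -0.08, 0.10 and 0.18, and in animals 6 to 9 at 25 mg/kg it was 0.43, 0.30, 0.80 and 0.46. In animals 12 to 15 at 50 mg/kg it was 4.32, 2.92, 1.00 and 1.42. In animals 17 to 20 at 75 mg/kg it was 4.81, 6.41, 2.93 and 6.47. All animals at 50 and 75 mg/kg lay above all controls, whereas the 25 mg/kg animals overlapped the controls. The groups at 50 and 75 mg/kg overlapped each other, since animal 12 lay above and animal 13 level with the lowest animal of the higher dose.

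The probe was well above background in the tissue channel on 4 of 4 arrays at 75 mg/kg, 4 of 4 at 50 mg/kg, 1 of 4 at 25 mg/kg (animal 8) and 0 of 5 controls. Its median spot signal at 75 mg/kg was 1005, 9842, 341 and 6490 in animals 17 to 20, against 62.5 to 84 in controls. The fitted difference of the log2 ratio from control was 0.38 ± 0.65 at 25 mg/kg, 2.30 ± 0.65 at 50 mg/kg and 5.04 ± 0.65 at 75 mg/kg (± SE of the fit). Without animal 19 the difference at 75 mg/kg was 5.78. Without animal 12 the difference at 50 mg/kg was 1.66. Since the controls had no signal well above background, these differences depend on how dim spots are corrected and scaled, and a fold can be given only as a bound. With the Cy5 channel alone (loess, then Aquantile), Chil4 over all 4 animals at 50 mg/kg was at least 4.2-fold higher than in controls. This bound holds for that scaling and those animals alone, since the log2 difference was 1.73 with Cy5 scaled to its 75th percentile and 1.77 with arrays centred on their medians. At 75 mg/kg the corresponding bound exceeded the fold of the ratio and is not given.

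Between doses, the Chil4 log2 difference was 1.92 ± 0.69 for 50 against 25 mg/kg, 4.66 ± 0.69 for 75 against 25 mg/kg and 2.74 ± 0.69 for 75 against 50 mg/kg. These comparisons share animals and are not independent of each other. Within slides 1, 2 and 3, mean Chil4 at 75 mg/kg exceeded the control mean of the same slide by 4.64, 4.66 and 6.29. At 50 mg/kg the same differences were 4.15, 1.94 and 1.23. At either dose the slides held 1, 2 and 1 treated animals, against 2, 2 and 1 controls. The 4.66 of slide 2 averages animals 18 and 19, whose log2 ratios were 6.41 and 2.93. The animals of one dose differed widely: the SD of the Chil4 log2 ratio was 1.52 at 50 mg/kg and 1.67 at 75 mg/kg, places 12 and 35 from the widest of 21384 genes, against 0.20 in controls. Among all genes, the median SD was 0.18 at each of these doses and 0.20 in controls.

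**Figure D1:**
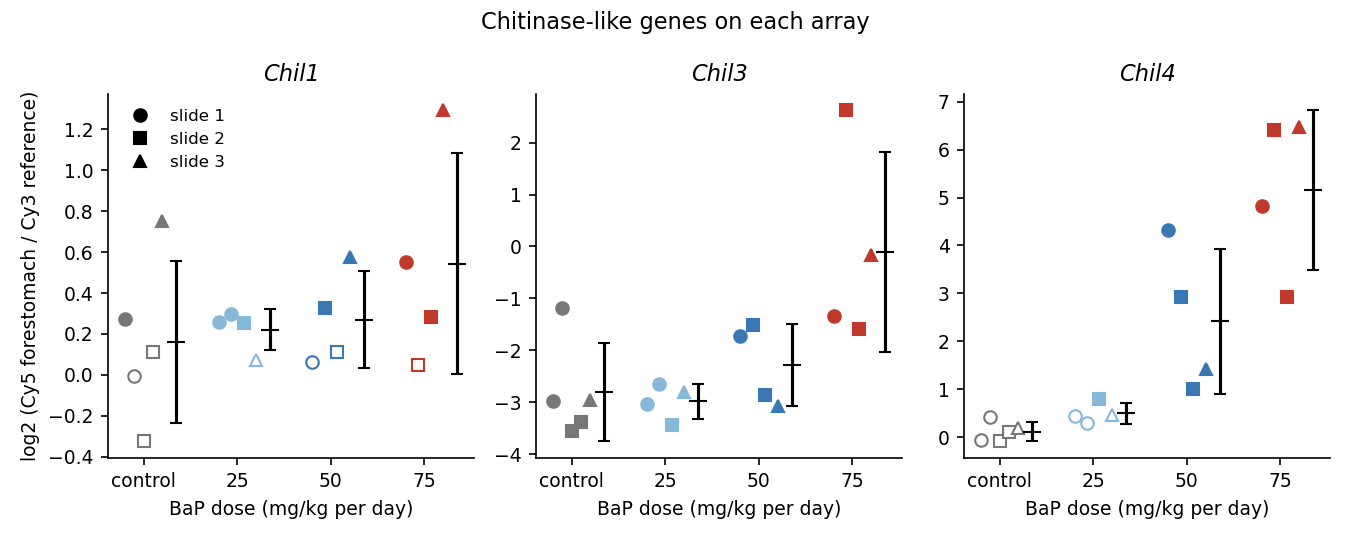
Log2 ratio of Cy5 (forestomach) over Cy3 (reference) for Chil1, Chil3 and Chil4 in each of 17 animals, by BaP dose with control at the left. Marker shape gives the slide, filled markers are spots well above background in Cy5, and bars are mean ± SD (n = 5 controls, n = 4 per dose). The vertical scales differ between genes. Chil4 lay between 2.93 and 6.47 at 75 mg/kg, above all controls, while Chil1 overlapped the controls at every dose.

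Chil3 was detectable in all animals and was higher than in controls mainly at 75 mg/kg. In control animals 1, 3, 4 and 5 its tissue signal lay only 27 to 69.5 above a local background of 65 to 72. The Cy3 signal of those spots was far brighter, at 1308 to 4349. Whether light from one channel entered the other was not tested. Its log2 ratio was -2.98, -1.19, -3.55, -3.37 and -2.95 in control animals 1 to 5, and -3.04, -2.65, -3.43 and -2.80 in animals 6 to 9 at 25 mg/kg. At 50 mg/kg animals 12 to 15 had -1.72, -1.51, -2.85 and -3.07. At 75 mg/kg animals 17 to 20 had -1.33, 2.63, -1.58 and -0.16. Control animal 2 stood apart from the other controls and lay above the 75 mg/kg animals 17 and 19, so the highest dose overlapped the controls through that animal alone. Animal 18 was the highest by a wide margin.

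The fitted Chil3 difference from control was -0.17 ± 0.68 at 25 mg/kg, 0.52 ± 0.68 at 50 mg/kg and 2.70 ± 0.68 at 75 mg/kg on the log2 scale. The 75 mg/kg value ranked 13 of 21384 genes and corresponded to 6.48-fold on the ratio scale, but without animal 18 it was 1.78. Most control spots behind that fold were dim in the tissue channel. Compared between doses, Chil3 differed by 2.87 ± 0.72 for 75 against 25 mg/kg and by 2.18 ± 0.72 for 75 against 50 mg/kg. Within slides 1, 2 and 3 the difference at 75 mg/kg was 0.75, 3.98 and 2.79, from 1, 2 and 1 treated animals. Slide 1, with the smallest of these differences, holds control animal 2. The sign at 25 mg/kg rests on that control as well, since without it the difference was 0.23, and with arrays centred on their medians it was 0.12. The SD of Chil3 was 1.93 at 75 mg/kg, place 14 from the widest of all genes, against 0.94 in controls.

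The reference channel of the Chil3 probe was not the same on all slides. Its Cy3 signal was 1505.5 to 1843.5 on slide 1, 3766.5 to 4565 on slide 2 and 1145 to 1308 on slide 3. After background subtraction and centring of each array, slide 2 was 3.28-fold brighter than the other slides, place 270 by size of 28357 probes, and 784 of these (2.76%) differed by at least 2-fold. A ratio on slide 2 is therefore set against a brighter reference than elsewhere. The tissue signal itself, before background correction, was 292.5, 12140, 578 and 765 in animals 17 to 20 at 75 mg/kg, against 99, 283.5, 134.5, 117 and 102.5 in controls. With the Cy5 channel alone, scaled to its 75th percentile without loess, the Chil3 log2 difference at 75 mg/kg was 2.81. That setting was added after seeing the data. With slide as a block in the fit the difference was 2.74. Both values were close to the 2.70 of the ratio.

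**Figure D2:**
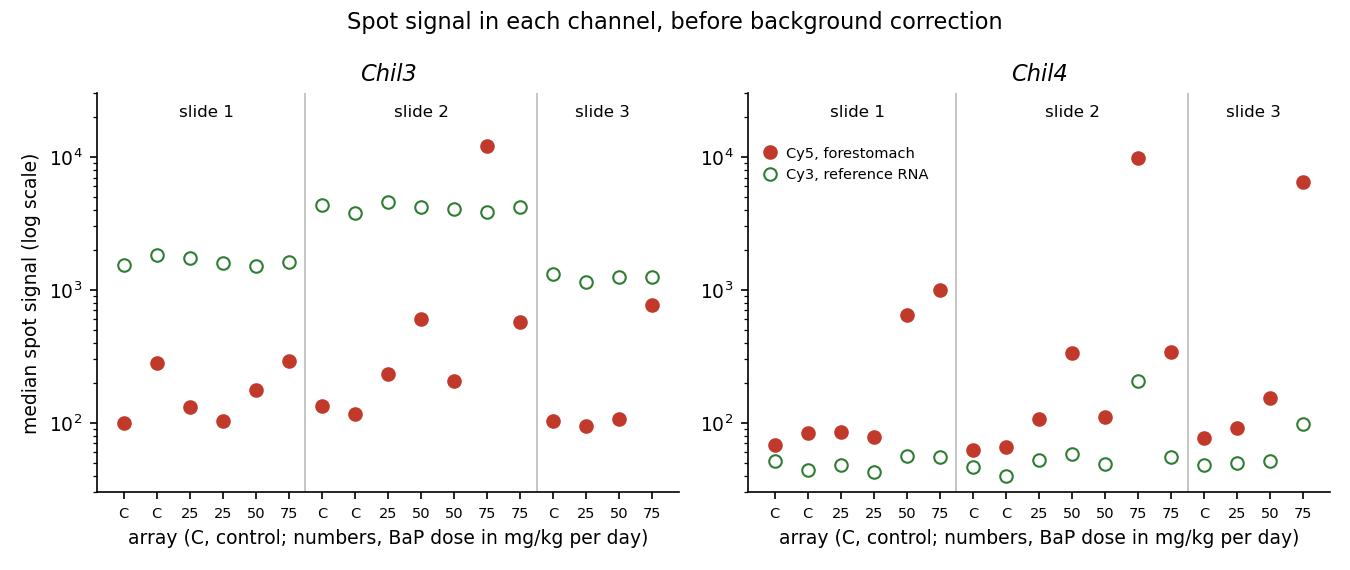
Median spot signal (log scale) of the Chil3 and Chil4 probes in the Cy5 channel (forestomach, filled) and the Cy3 channel (reference, open) on each of 17 arrays, ordered by slide and then by dose. The Chil3 reference signal was highest on slide 2, at 3766.5 to 4565, and the Chil4 reference signal was 207 and 98 on the arrays of the 75 mg/kg animals with the brightest Chil4 tissue signal.

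Because Chil3 and Chil4 are near copies, each probe may also read RNA of the other gene, and the probe sequences were not used here. In the reference RNA, where Chil3 was bright on all arrays, the Chil4 probe passed the background test on 2 of 17 arrays and had signals of 39.5 to 58.5 on the others, slide 2 included. In animal 12 at 50 mg/kg the Chil4 tissue signal was 652.5 while that of Chil3 was 177, against 99 to 134.5 in 4 controls and 283.5 in control animal 2. The arrays of animals 18 and 20 at 75 mg/kg were the exceptions in the reference channel, with Chil4 Cy3 signals of 207 and 98 against at most 52 in controls. Those are also the arrays with the brightest Chil4 tissue signal, 9842 and 6490; whether light from one channel entered the other was not tested.

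Across the 17 animals the log2 ratios of Chil3 and Chil4 had a Pearson correlation of 0.839 and a Spearman correlation of 0.691, as a description, since the dose groups shape both. Without animals 18 and 20, the arrays farthest from the Chil4 median, Pearson's r was 0.718 (n = 15). With each animal's deviation from its dose group mean, r was 0.651, and with slide fitted as well it was 0.66. The order of animals was not the same in the 2 genes: animal 12 was the highest at 50 mg/kg in Chil4 yet lay below animal 13 in Chil3. At 75 mg/kg animals 18 and 20 had nearly equal Chil4 ratios, 6.41 and 6.47, but Chil3 ratios of 2.63 and -0.16. Chil1 followed neither gene, with r of 0.167 against Chil3 and 0.41 against Chil4.

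**Figure D3:**
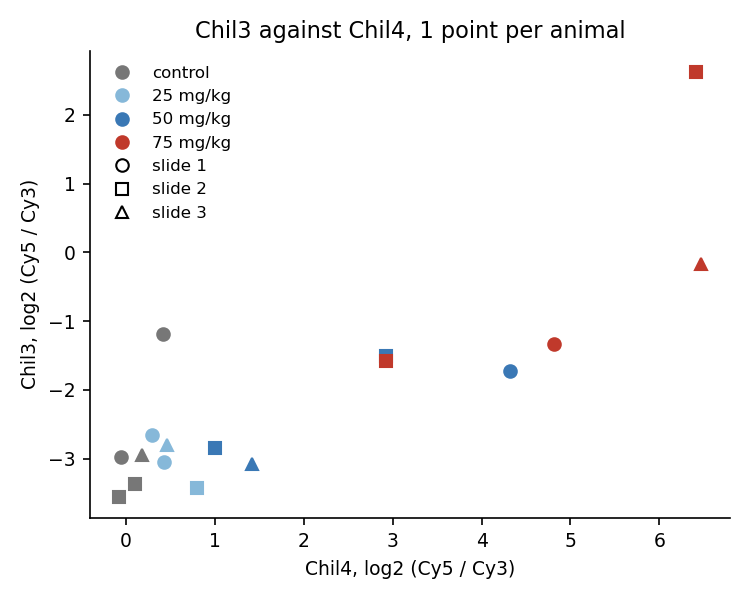
Log2 ratio of Chil3 against that of Chil4, 1 point per animal (n = 17), with colour for dose and shape for slide. Control animal 2 is the grey point with a Chil3 ratio of -1.19, and animal 18 at 75 mg/kg is highest in Chil3, at 2.63.

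In the log2 ratio used here, Chil1 stayed close to the control level at every dose, within the spread of the animals. Its log2 ratio was 0.27, 0.00, -0.33, 0.11 and 0.75 in control animals 1 to 5, and 0.26, 0.30, 0.25 and 0.07 in animals 6 to 9 at 25 mg/kg. In animals 12 to 15 at 50 mg/kg it was 0.06, 0.33, 0.11 and 0.58. In animals 17 to 20 at 75 mg/kg it was 0.55, 0.05, 0.28 and 1.29. Each dose overlapped the controls, and animal 20 alone lay above them all. The fitted log2 difference was 0.06 ± 0.22 at 25 mg/kg, 0.11 ± 0.22 at 50 mg/kg and 0.38 ± 0.22 at 75 mg/kg, and the last was 0.13 without animal 20.

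The Chil1 signal was dim in both channels, and the probe was well above background in the tissue on 10 of 17 arrays. Its differences therefore depend on how dim spots are corrected. With Agilent's processed signals they were 0.68, 0.71 and 1.12 at 25, 50 and 75 mg/kg, each ± 0.62. Within slides 1, 2 and 3 the 75 mg/kg difference was 0.42, 0.27 and 0.54, from 1, 2 and 1 treated animals. At 25 mg/kg the sign depended on the scaling, since with the Cy5 channel alone, scaled to its 75th percentile, the difference was -0.11.

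Across all genes, limma called 3 at 25 mg/kg (0.014% of those tested), 10 at 50 mg/kg (0.0468%: 0.0421% higher and 0.00468% lower) and 236 at 75 mg/kg (1.1%: 0.893% higher and 0.21% lower). Of the chitinase-like genes 0 of 3, 0 of 3 and 1 of 3 were among them, Chil4 being the gene at 75 mg/kg, called higher. All treated animals lay above all controls for 0 of 3 members at 25 mg/kg (background 0.556% of genes). The same held for 1 of 3 at 50 mg/kg (1.22%) and 1 of 3 at 75 mg/kg (1.99%), the gene being Chil4 at both doses. Chil4 passed the brightness filter through arrays of treated animals alone. The genes were chosen for these levels, so nothing is read from the calls or from the counts of separated groups.

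Among the other members of the family, none passed the test at any dose (0 of 5 tested). These include the active chitinases Chia1, the acidic enzyme of stomach and lung, and Chit1. The others are Chid1, Ctbs, which takes part in glycoprotein breakdown, and Ovgp1, a glycoprotein of the oviduct. Chit1 was bright in the tissue, with a log2 ratio of 4.17 ± 0.31 at 75 mg/kg (SD, n = 4) against 4.20 ± 0.48 in controls (SD, n = 5). Its log2 difference was -0.03 ± 0.24 (SE; limma adjusted p = 0.98). Chit1 is the next gene to Chil1 in the RefSeq order. Chid1, Ctbs and Ovgp1 differed by 0.05 ± 0.12, -0.05 ± 0.11 and -0.02 ± 0.13 at 75 mg/kg. Chil6 gave no tissue signal well above background (0 of 17 arrays) and was not tested, and Chil5 had no probe matched by RefSeq transcript.

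Chia1 had its highest values at 25 mg/kg, where the log2 difference was 2.25 ± 0.89 (adjusted p = 0.999), against 0.86 ± 0.89 at 50 mg/kg and 0.79 ± 0.89 at 75 mg/kg (adjusted p = 0.826). The 25 mg/kg value came from animals 7 and 9, with 6.51 and 2.69. Animal 7 also had the highest mean over 8 tested marker genes of the glandular stomach, a log2 ratio of 4.96 and a summed net Cy5 signal of 240000.95, and its Chil4 ratio was 0.30. At 75 mg/kg the glandular means were 2.43, 0.81, 0.36 and 2.61 in animals 17 to 20, against 0.05 to 1.50 in controls, with summed Cy5 of 300.8 to 62748.05 against 84.7 to 6196. The summed signals were not scaled between arrays. Of the 10 glandular genes listed, 8 were tested and 0 were called at any dose; Atp4b, a subunit of the parietal cell proton pump, differed by 0.98 ± 1.03 at 75 mg/kg. Chil4 was about equally high in animal 18, with a glandular mean of 0.81, and in animal 20, with 2.61; the part of glandular RNA in the Chil4 values was not tested.

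**Figure D4:**
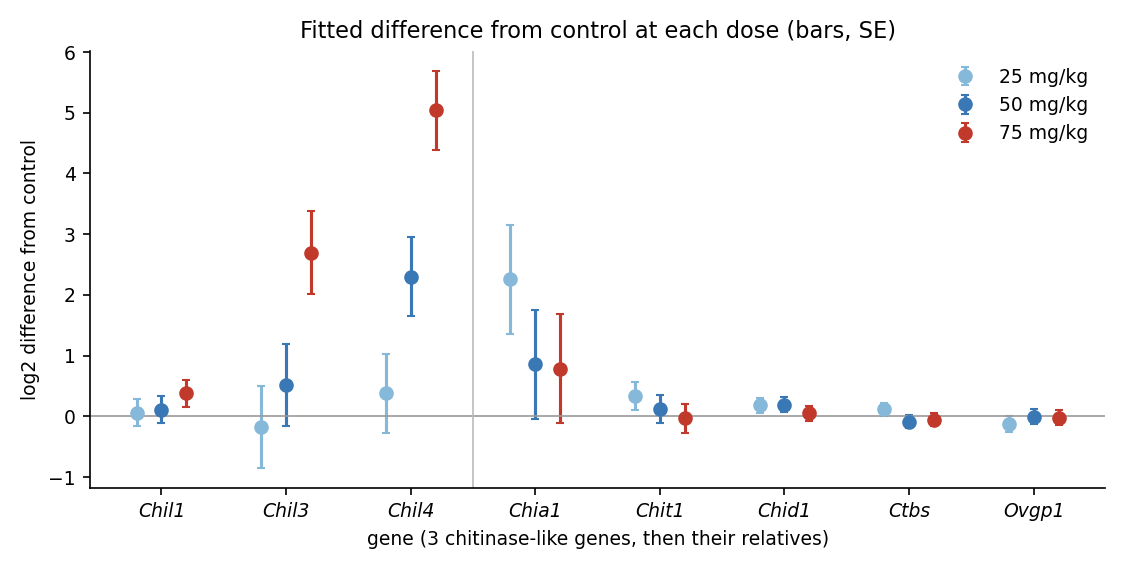
Fitted log2 difference from control at 25, 50 and 75 mg/kg for Chil1, Chil3 and Chil4 and for 5 relatives (bars, SE of the fit; n = 4 per dose, n = 5 controls). Chil4 was 5.04 and Chil3 2.70 above control at 75 mg/kg, whereas Chit1 lay at -0.03.

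Chil3 and Chil4 lie side by side, between Chia1 and Chil6 in the RefSeq gene order. Of their 10 nearest named neighbours 9 had a probe and 8 were tested, and of the 10 around Chil1 9 had a probe and 7 were tested. At each dose 0 of these 15 neighbours were called, a count near the background, which was 1.1% of all genes at 75 mg/kg and less at the lower doses.

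Since Chil3 and Chil4 are known targets of interleukins 4 and 13, genes of that programme were examined beside them. These lists and those of cell types were chosen with earlier results of these data known. Their calls and adjusted p are therefore a description, not an independent test. Of 14 listed type 2 cytokines and receptors 6 had no signal well above background on any of 17 arrays, Il4 and Il13 among them. The other 8 were tested and 0 were called at any dose, with a median log2 difference of 0.26 at 75 mg/kg, against -0.01 over all genes. Il33, an epithelial alarm cytokine, differed by 0.68 ± 0.22 (adjusted p = 0.231), and Ccl11, an eosinophil chemokine, by 0.85 ± 0.25 (adjusted p = 0.164).

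Of 16 genes of alternatively activated macrophages 13 were tested, and 1 was called at 75 mg/kg. It was Arg1, an arginine-degrading enzyme of those cells, which rose by 2.09 ± 0.40 (adjusted p = 0.0148) in a log2 ratio of 3.66 to 4.78 at 75 mg/kg against 1.49 to 3.13 in controls. The call was lost without animal 17 or animal 20 (adjusted p up to 0.0655) and with Agilent's processed signals, which gave 1.02 (adjusted p = 0.429). The other markers of the same state did not pass: Retnla, a secreted companion of Chil3 in such macrophages, differed by 0.13 ± 0.17 (adjusted p = 0.863). Mrc1, the mannose receptor, differed by 0.02 ± 0.31 (adjusted p = 0.987), and Clec10a, another lectin receptor, by 0.99 ± 0.26 (adjusted p = 0.0906). The median of the 13 was 0.13. Of 9 epithelial targets of interleukin 13, 5 were tested and 0 called. Clca1 and Retnlb, secreted goblet cell products, were well above background on 0 arrays.

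Markers of other cell types were read against the 1.1% of all genes called at 75 mg/kg. Of 15 macrophage and monocyte genes 12 were tested and 1 was called, Ccr2, the receptor of inflammatory monocytes, at 0.84 ± 0.18 (adjusted p = 0.0262), a call lost in 6 of the 17 fits that left out 1 animal (adjusted p up to 0.102). In the fits without 1 animal its difference stayed at 0.76 to 0.90. The call was also lost with Agilent's processed signals, where the difference was larger, 1.78 (adjusted p = 0.137), and with the Cy5 channel alone, at 0.65 after Aquantile (adjusted p = 0.107) and 0.39 by percentile (adjusted p = 0.645). The median of the 12 was 0.35, and 8 of 12 differences were positive. Adgre1, which encodes F4/80, differed by 0.54 ± 0.22 (adjusted p = 0.394), whereas the scavenger receptor gene Marco differed by -1.01 ± 0.77 (adjusted p = 0.727) and Mertk, a receptor for the uptake of dying cells, by -0.48 ± 0.20 (adjusted p = 0.415). The summed net Cy5 signal of the macrophage list, not scaled between arrays, was 7671.45 to 14060.5 at 75 mg/kg against 5171.1 to 13141.25 in controls. The part of macrophage content in the Chil3 values was not tested.

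Of 13 neutrophil genes 8 were tested and 0 called. S100a9, a calcium-binding protein that neutrophils and stressed keratinocytes both make, differed by 2.26 ± 0.65 (adjusted p = 0.148), and Cxcr2, a neutrophil chemokine receptor, by 0.07 ± 0.23. Mpo, the granule peroxidase, differed by -0.33 ± 0.47, and Mmp8 was well above background on 0 arrays. The summed net Cy5 signal of the neutrophil list was 22316.45 to 62338.95 at 75 mg/kg against 12848.45 to 24845 in controls. These sums were not scaled between arrays, and the highest of each group was on slide 3. The median log2 difference of the 8 genes was -0.0009, with 4 positive. S100a8 differed by 1.65 ± 0.98 (adjusted p = 0.62 in limma). Control animal 2, the highest control in Chil3, had the highest neutrophil, macrophage and eosinophil means of all animals (2.28, 1.51 and 1.69). The highest treated animals had 1.61, 1.01 and 1.26 (animals 20, 13 and 19). The differences of these 3 lists were taken against controls that include animal 2. The part of those cells in its Chil3 level was not tested. Of 8 eosinophil genes 3 were tested and 0 called, and the defining Epx, Prg2 and Siglecf were well above background on 0 arrays. Of 9 mast cell genes 7 were tested and 0 called.

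In the squamous epithelium list 2 of 12 genes were called, and nothing is read from a comparison of calls between lists. Krt16, a keratin of activated epidermis, rose by 3.62 ± 0.57 (adjusted p = 0.00429), and Dsg1a, a desmosomal cadherin, by 1.69 ± 0.33 (adjusted p = 0.0154), although the list's median was -0.01. Without animal 20 the adjusted p of Dsg1a was 0.0659. The basal keratins Krt5 and Krt14 differed by -0.06 ± 0.14 and -0.02 ± 0.19. Of 7 genes reported to encode binding partners of CHI3L1, 5 were tested and 0 called, with Lgals3, which encodes galectin-3, at 0.55 ± 0.13 (adjusted p = 0.0561). Of 14 inflammatory cytokines 2 were tested and 0 called, and Il6, Tnf and Il17a were well above background on 0 arrays. At 25 and 50 mg/kg 0 genes were called in any of these lists.

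**Figure D5:**
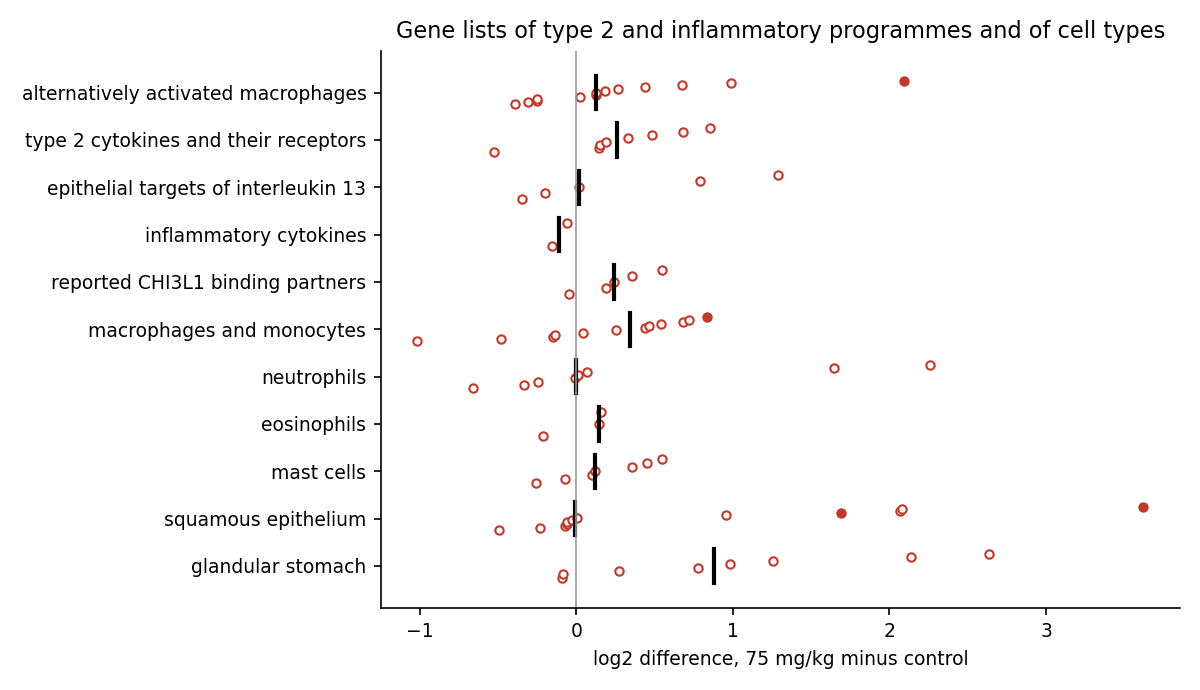
Log2 difference at 75 mg/kg minus control for the tested genes of 11 lists, 1 point per gene, with filled points past the test (adjusted p under 0.05) and black lines at list medians. The filled points are Arg1 at 2.09, Ccr2 at 0.84, Dsg1a at 1.69 and Krt16 at 3.62.

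Genes with the most similar profile were ranked by Pearson's r over the 17 animals among 13830 named genes, as a description. The chitinase-like genes themselves were left out of this ranking. The animals share dose groups and slides, so any gene that moved with dose can rank high. The 10 nearest to Chil4 were Stfa2l1 (r = 0.958), Defb3 (0.948), Stfa2 (0.946), Fam162a (0.942), Sprr2f (0.938), Stfa1 (0.937), Sprr2h (0.932), Gm21944 (0.92), Grip1 (0.915) and S100a7a (0.91). Ranked by deviations from dose group means, 5 of these 10 were again among the 10 nearest. The nearest gene by deviations was Stfa2, a stefin A protease inhibitor, with r of 0.88. With slide fitted as well, 2 of the 10 were kept.

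The 5 nearest to Chil3 were Icos (r = 0.869), Mcpt1 (0.828), Dhx58 (0.805), Ifit3b (0.789) and Parp9 (0.782), and 1 of these was kept by deviations. The 5 nearest to Chil1 were Zfp691 (r = 0.85), Mkrn2 (0.82), Lgi2 (0.812), Tac4 (0.811) and Ipo5 (0.808), and 3 were kept. Chil4, left out of the ranking as a member, had r of 0.839 with Chil3, above that of Mcpt1. Outside the members, no gene was named for more than 1 of the 3 chitinase-like genes.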

How the data were processed

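Per the labels, tissue RNA was labelled with Cy5 and the cell line reference with Cy3 on every array, with no dye swap. The authors deposited scanner tables of spot intensity for both channels and a series table of log2 values. The scanner software was Feature Extraction, version 10.7.3.1, per the file headers. Other deposited columns used were the scanner's flags for spots well above background, saturated or outlying, per the file headers. Set against the scanner values, the authors' log2 table matched a Cy5 over Cy3 ratio after loess with background left in (r = 0.998 to 0.999 over probes, column medians -0.03 to -0.02). Its scale and centring are not given in the sources used here.

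Each table held 62976 spots, 3671 of them controls. Median signals were corrected with normexp (offset 50) and local median background; mean signals, the first choice, were not used here. Loess followed within arrays, with controls at weight 0. Outlier spots were left out and spots of a probe averaged. A probe was kept if 4 or more arrays had it well above background in Cy5 (27577 probes), with the brightest per gene. Names came from RefSeq transcripts in the GRCm38.p6 table: 26413 of 55681 probes had 1 symbol, 0 several and 29268 none. The array design names another build, so no gene coordinates are given beyond the promoter windows of the RefSeq table. Differences were fitted with limma 3.58.1 in R 4.3.3 over all 17 arrays with 4 group means (lmFit and eBayes, Benjamini-Hochberg over 21384 genes, threshold 0.05), after a test on simulated data. The 3 chitinase-like genes were chosen with earlier results of these data known, so their own differences carry no p-value. The gene lists were chosen in the same way, and the adjusted p of their genes is a description. Of each list the genes that passed the test and up to 4 others are named. Also named are 5 neighbours on each side of each locus. The 10 (Chil4) or 5 (Chil3, Chil1) genes most correlated with a member, other members left out, are named as well. The number of arrays limits the precision, and ± is the standard error of the fit unless stated. Replicates are animals per the labels; 0 columns were left unmatched. Alternatives covered background, normalization, channel, slide, filter, probe choice, the authors' table and leaving out each array.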

Additional observations from a re-analysis of the deposited data

Results flagged for a closer look

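Chil3 in control animal 2 stood apart from the other 4 controls. Its log2 ratio was -1.19, the nearest other control was at -2.95, and the gap was 0.745 of the whole control range, above Dixon's 95% critical value of 0.71. Among 12 groups examined, 1 was marked this way, and chance marks about 1 in 20.

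The reference channel gave a signal for Chil4 on 2 arrays. The Cy3 signal was 207 in animal 18 and 98 in animal 20, both at 75 mg/kg, against at most 52 on control arrays. These were the arrays with the brightest Chil4 tissue signal, 9842 and 6490.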

How the results depend on the processing

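Over 9 differences (3 genes at 3 doses) and 234 alternative values, 228 lay within 1 SD of the value reported and 6 did not. All 6 came from Agilent's processed signals, which gave Chil1 0.68, 0.71 and 1.12 and Chil4 2.65, 5.32 and 6.84 at 25, 50 and 75 mg/kg. The SD is the gene's own within groups, pooled over the groups. It is wide for Chil3, whose change from 2.70 to 1.78 at 75 mg/kg counts as within it. Part of the count was fixed in advance. Leaving out an animal of a dose not compared, or fitting only the compared groups, cannot change a difference. Leaving out 1 animal gave 4.61 to 5.78 (without animal 19) for Chil4, 1.78 to 3.19 for Chil3 and 0.13 to 0.55 for Chil1 at 75 mg/kg. At 50 mg/kg it gave 1.66 (without animal 12) to 2.77 for Chil4, 0.26 to 0.92 for Chil3 and -0.01 to 0.26 for Chil1. The authors' deposited table gave Chil4 5.13, Chil3 2.62 and Chil1 0.43 at 75 mg/kg. Chil4 at 75 mg/kg was 4.20 with arrays centred on their medians, a scaling that moved the median of all genes by 0.19.

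Counts of called genes depended on the setting. At 25 mg/kg (3 called) Agilent's signals, Cy5 alone after Aquantile, Cy5 scaled to its 75th percentile (added after seeing the data), slide as a fixed block and no filter each gave 1, median centring gave 0, and leaving out 1 animal gave 0 to 2. At 50 mg/kg (10 called) median centring gave 1, Cy5 after Aquantile 3, Cy5 by percentile 5, a fixed slide block 28, a random one 21, no filter 6, the mean over probes 6 and leaving out 1 animal 2 to 32. At 75 mg/kg (236 called, 191 higher and 45 lower) median centring gave 145 (142 higher and 3 lower), Cy5 by percentile 151, a fixed slide block 424, a random one 383, only the compared groups 155 and leaving out 1 animal 119 to 289, lowest without animal 17. The causes were not tested. No paired analysis was possible because the groups share no replicate numbers. Chil1 and the Chil4 controls lie near background, which limits their log2 ratios. Most Chil3 controls were also dim in the tissue channel.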
